A study of Mus musculus with 90 samples.

Results

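The data described here cover the step from the MII oocyte to the 2-cell embryo (2c) in the absence of maternal Plag1, the gene of a zinc finger transcription factor. Of the 90 single oocytes and embryos in the series, 30 were labelled Plag1 knockout and taken at MII (16) or 2c (14). After libraries with a median below 1 CPM (gene counts scaled to a common library total) were left out, 25 of these 30 remained, 14 MII oocytes and 11 2c embryos, and the 2c embryos were compared with the MII oocytes. The 30 were taken by their genotype and stage labels, and the 25 by that CPM limit.

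All animals were of the CD-1 strain. MII oocytes came from unmated, superovulated, sexually mature knockout females, were not cultured and were picked 21 to 23 h after the injection of human chorionic gonadotropin. The 2c embryos came from knockout females mated with wildtype (WT) studs, were cultured in KSOM medium and were picked 45 to 47 h after fertilization. They lacked the maternal Plag1 allele but carried a paternal WT one, and such embryos are called matPlag1KO, as are the knockout oocytes here. The WT libraries used for comparison were 16 MII oocytes and 11 2c embryos of WT females, collected and cultured in the same way. Culture and hours therefore differ between the stages together with development, and their parts cannot be told apart. The labels do not name donor females, so p-values measure the spread between these oocytes and embryos, some of which may share a mother.

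A growing oocyte stores messenger RNA and stops transcription before ovulation, so an MII oocyte, arrested at the second meiotic metaphase, lives on stored transcripts. During maturation and after fertilization the stored RNA is degraded in successive waves, first by maternal factors such as BTG4 with the CCR4-NOT deadenylase and later by products of the embryo itself. In the mouse the main wave of zygotic genome activation falls at the late 2-cell stage, when a burst of stage-specific genes such as the Zscan4 cluster is followed by genes for ribosomes and other basic machinery. PLAG1 binds a GC-rich consensus made of a core and a downstream G cluster, and it is known as an oncogene of salivary gland adenomas and as a growth regulator.

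Each transcript was captured by its poly(A) tail, read at its 5′ end and counted once with a molecular identifier. Loss of a tail and loss of an RNA cannot be told apart in such counts. Because each molecule was counted once, counts do not grow with transcript length. A fixed amount of synthetic ERCC spike-in RNA went into every library, and levels are given as counts per 10000 spike-in counts of the same library, thus per whole oocyte or embryo and not per cell. Gene counts ranged from 438233 to 1772844 per kept MII library (median 649899) and from 92475 to 256529 per kept 2c library (median 163626), whereas spike-in counts ranged from 8732 to 11807 and from 7996 to 12247. Between 9983 and 12846 genes had a count in an MII library and between 8331 and 11552 in a 2c library. The oocytes and embryos were barcoded and pooled in 2 batches, libA and libB, and each stage and genotype was present in both. A library is named by its pool and its position label, as in libB.A1.

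The labels were checked first. Plag1 had 326 counts in the 16 WT MII libraries, with a count in every one, and 4 counts in 3 of the 14 matPlag1KO MII libraries. At 2c the order was the opposite: Plag1 had 1 count in the 11 WT libraries and 91 counts in 9 of the 11 libraries labelled matPlag1KO. The 5′ counts carry no allele information, so the paternal allele and an exchange of the 2c genotypes cannot be told apart from these counts. Since the 2c directions rest on those labels, the main counts were also made with the 2c libraries labelled WT set against the same matPlag1KO oocytes, and the differences from WT also with the 2c genotype labels exchanged. The stage labels fitted the median levels of their markers. All 8 oocyte markers (Zp1, Zp2, Zp3, Gdf9, Bmp15, Nlrp5, Ooep and Mos) were present at MII. Their summed level was 1043 to 17565 at MII (median 8492) and 139 to 1475 at 2c (median 293). These ranges overlapped through the oocytes libB.A1 and libB.A2. The 5 cleavage markers (Zscan4c, Zscan4d, Zfp352, Tdpoz4 and Usp17la) had a median summed level of 0.423 at MII and 115 at 2c, and the ranges, 0 to 6.48 and 40.8 to 416, did not overlap.

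Other cells that could be carried along were looked for by their markers. Of 13 cumulus and granulosa markers, 3 (Cyp11a1, Ptx3 and Amh) were at 0, and the summed level was 3.76 to 41.8 at MII and 0 to 22.6 at 2c. Most of these counts came from Cyp19a1 (153 counts at MII and 8 at 2c) and Amhr2 (2 and 86). Of 7 sperm markers, 4 (Prm1, Tnp2, Smcp and Akap4) were at 0, and the summed level was 0.983 to 74.2 in these oocytes of unmated females and 0 to 8.82 at 2c. The part of either cell type in the values below was not tested. At MII 2 libraries stood apart, libB.A1 and libB.A2. Their summed oocyte marker levels were 1254 and 1043, against 3904 to 17565 in the other 12. Mos was at 3.76 and 1.97 there against 102 to 1208 elsewhere, and Gm6981 at 20.7 and 8.85 against 537 to 996, while Dppa3 was at 2958 and 3141 against 3075 to 4614. Both libraries were kept in the values below, and the main counts are also given without them.

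Captured poly(A) RNA per oocyte or embryo fell, and these counts cannot tell loss of tails from loss of RNA. A matPlag1KO MII oocyte gave 42.6 to 164 gene counts per spike-in count (median 64.4) and a 2c embryo 11.1 to 22.6 (median 18.3). The stages thus did not overlap. Mean log2 ratios were 6.17 ± 0.57 (SD, n = 14) and 4.07 ± 0.35 (SD, n = 11), a 4.31-fold fall (two-sided permutation test, p = 2e-05). Within libA the fall was 4.87-fold (exact permutation p = 0.00126) and within libB 3.85-fold (exact permutation p = 0.000583).

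**Figure D1:**
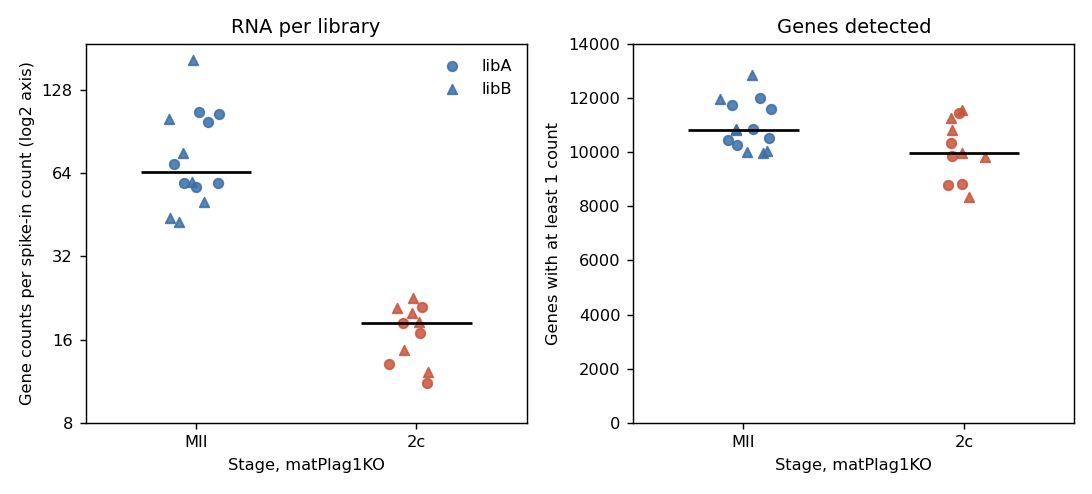
Left, gene counts per spike-in count (log2 axis), and right, the number of genes with at least 1 count, for the 14 MII and 11 2c matPlag1KO libraries. Each point is a library, its shape gives the pool and the line the median. The 2c libraries lie below the MII libraries on the left, at medians of 18.3 and 64.4, and overlap with them on the right.

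Because of this fall each gene was read on a pair of scales. On the spike-in scale a change is per embryo, and on the TMM scale, which centres most genes on no change, it is relative to the other genes. Of 16511 genes tested, 8306 fell (50.3%) and 2231 rose (13.5%) per embryo (quasi-likelihood test of edgeR, Benjamini-Hochberg adjusted p under 0.05). Relative to the other genes 3192 fell (19.3%) and 4799 rose (29.1%). Over all these genes the log2 fold changes had a median of -1.42 per embryo and 0.14 on the TMM scale. All 3192 genes that fell on the TMM scale also fell per embryo, and all 2231 that rose per embryo also rose on the TMM scale. A scale acts on all genes of a library alike, so this nesting is no agreement of separate tests. A further 4998 genes fell per embryo but were not called on the TMM scale, and 116 fell on one scale and rose on the other. Changes of at least 16-fold per embryo were called in 1107 genes that fell and 433 that rose. The kept MII and 2c libraries did not overlap for 1704 genes with 2c below and 151 with 2c above, or 10.3% and 0.915% of the tested genes.

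Without the 2 MII libraries low in oocyte markers, 8514 genes fell (51.7%) and 2005 rose (12.2%), with a median of -1.503. With the 2c libraries labelled WT in place of those labelled matPlag1KO, 9151 fell (55.4%) and 2067 rose (12.5%), with a median of -1.76. This last comparison and the main one share the matPlag1KO oocytes.

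The genes with the deepest falls were led by factors of the oocyte itself. Pabpn1l, an oocyte poly(A)-binding protein that works with BTG4 (mm9 chr8:125143371-125146635), lay between 33.4 and 1384 at MII (median 334) and between 0 and 7.86 at 2c (median 1.63). The stages did not overlap, and the log2 fold change per embryo was -7.26 ± 0.77 (SE, adjusted p = 2.2e-13 in edgeR). Rgs2, a regulator of G-protein signalling (mm9 chr1:145846468-145851279), had 805 to 1883 at MII (median 1621) and 1.07 to 30.3 at 2c (median 4.08). It too was lower in every 2c embryo than in every oocyte, with a log2 fold change of -7.25 ± 0.51 (SE). Mos, the kinase that holds the oocyte in metaphase arrest through the MAP kinase pathway (mm9 chr4:3797805-3799252), had a median of 457 at MII and of 1.02 at 2c, with no count in 5 of the 11 embryos. Its ranges, 1.97 to 1208 and 0 to 13.5, overlapped only through the oocytes libB.A1 and libB.A2, and the log2 fold change was -7.05 ± 0.95 (SE, adjusted p = 7.3e-10 in edgeR). Padi6, a protein of the egg's cytoplasmic lattices and the subcortical maternal complex (mm9 chr4:140283270-140298558), was at 189 to 9194 (median 2367) at MII and 1.20 to 55.9 (median 18.8) at 2c, a log2 fold change of -6.92 ± 0.57 (SE).

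The other 6 genes of this group were Slc25a35, a mitochondrial carrier, Gm6981, the elongation factor gene Tcea3, Ccdc174, Calcoco1 and Cited2, a partner of the coactivators CBP and p300. Their medians lay between 40.5 (Calcoco1) and 732 (Gm6981) at MII and between 0 and 6.73 (Cited2) at 2c. Tcea3 fell by 7.04 on the log2 scale, Ccdc174 by 6.86 and Cited2 by 6.69. Slc25a35 had 750 counts in the 14 oocytes and 3 in the 11 embryos, a ratio per spike-in count of 0.00523 with a 95% counting interval of 0.00108 to 0.0154. Of these 6 genes Slc25a35 and Gm6981 overlapped between the stages, Slc25a35 through the oocyte libB.A1 (0.94) and Gm6981 through libB.A2 (8.85). A fall on both scales was a condition for the choice of these 10 genes, and their log2 TMM fold changes ran from -4.74 (Cited2) to -5.60 (Rgs2). With the WT oocytes and WT embryos the same genes had log2 fold changes from -5.28 (Padi6) to -7.26 (Rgs2).

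The genes with the steepest rises were nearly or wholly without counts at MII. Gm4850 (mm9 chr1:31321692-31324906) had no count in any of the 14 oocytes and 90.4 to 243 at 2c (median 135), at least 662-fold higher when the oocytes are set at a floor of 3 counts over the group. Gm4858 (mm9 chr3:92872745-92879427) was likewise at 0 in every oocyte and at 9.65 to 352 at 2c (median 39.3), at least 408-fold higher. Counts in every embryo were a condition for the choice of these genes.

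Zfp352, a retrotransposed zinc finger gene used as a mark of the 2-cell stage (mm9 chr4:89885511-89892378), had 2 counts in 1 oocyte and 733 in the 11 embryos, where it was at 21.7 to 105 (median 77.5). The ratio was 479.6, with a 95% counting interval of 132 to 3968. Gm16381, BB287469 and Gm2016, Eif1a-like genes on neighbouring, partly overlapping rows of chromosome 12, had medians of 369, 252 and 105 at 2c and 0 at MII. Their copies are near-identical, so reads may be shared between them and the level of each is uncertain. Cd24a, a cell surface glycoprotein (mm9 chr10:43298975-43304071), had 1 count at MII and was at 21.5 to 102 (median 46.5) at 2c. Gm8994, B020004C17Rik and Gm4971 also had 1 count each at MII, and their medians at 2c were 75.9, 79.6 and 57.5. None of the 10 genes overlapped between the stages. A rise on both scales and counts in all 11 embryos were conditions for their choice.

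**Figure D2:**
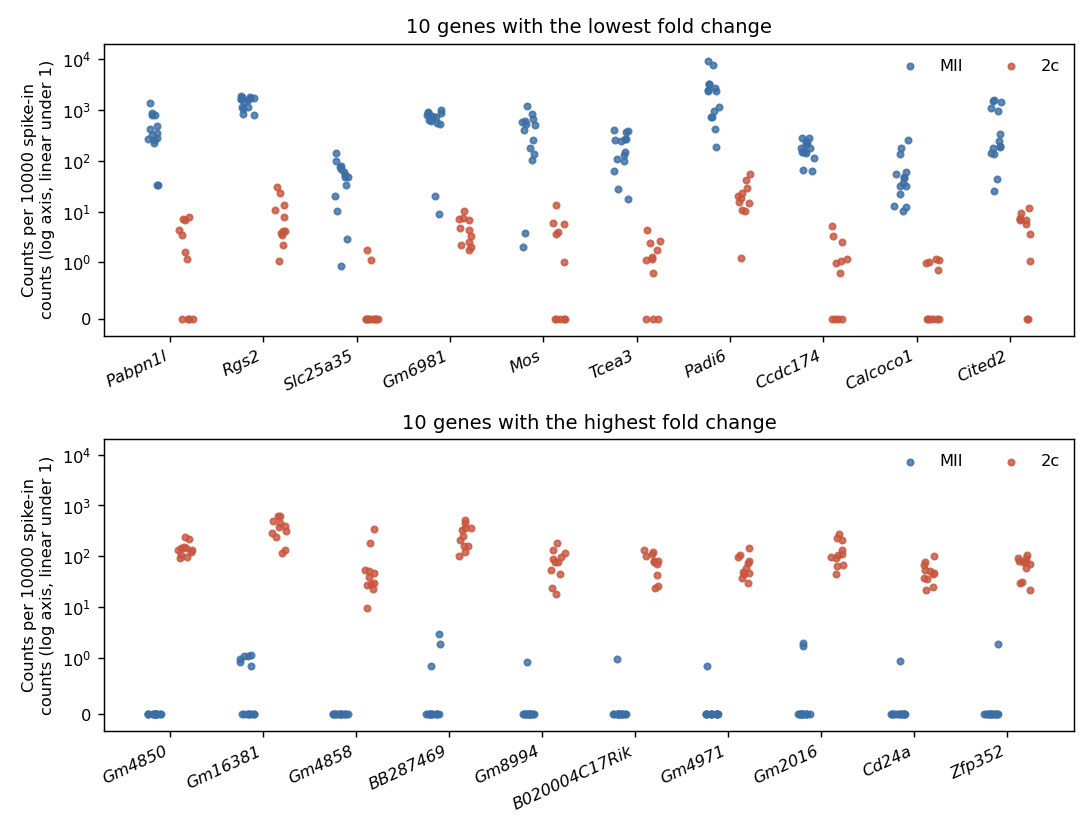
Levels (counts per 10000 spike-in counts, log axis that is linear under 1) of the 10 genes with the lowest and the 10 with the highest log2 fold change, in each of the 14 MII and 11 2c matPlag1KO libraries. Each point is a library. In the upper panel Slc25a35, Gm6981 and Mos have 2 MII points far below the other 12, and in the lower panel every 2c point lies above every MII point.

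The most abundant transcripts moved less than these. Snora19, Mir3084-1 and Gm38437 are overlapping rows that held the same counts, so they stand for 1 signal, which was the highest at MII (5420 to 21378, median 8390) and lay between 1231 and 2810 (median 2141) at 2c. H1foo, the oocyte linker histone (mm9 chr6:115894949-115900260), was also among the most abundant at MII and was at 539.7 to 8577 (median 6562) and 12.2 to 443 (median 37.0) at 2c. Its log2 fold change was -6.19 ± 0.66 (SE, adjusted p = 2.6e-13 in edgeR), and the oocytes libB.A1 and libB.A2 were at 871 and 539.7, against 5409.5 or more in the other 12. Gm21950, which spans several X-linked copies, fell by 1.89 on the log2 scale, close to the median of all genes, and was not called on the TMM scale (log2 fold change -0.05, adjusted p = 0.88). Rn45s, the ribosomal RNA precursor, fell by 0.97 per embryo and rose by 0.82 on the TMM scale, so its direction depended on the scale. Omt2a, an oocyte-specific transcript (mm9 chr9:78159779-78162604), was at 1914 to 3141 (median 2611) at MII and still at 1534 to 2325 (median 1823) at 2c. Its log2 difference per embryo was -0.48 (adjusted p = 0.091), and on the TMM scale it rose by 1.21.

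Lists of genes with shared roles were then read as counts beside the 50.3% of tested genes that fell and the 13.5% that rose per embryo. On the TMM scale these shares were 19.3% and 29.1%, so the balance over all tested genes turned with the scale. In 26 of the 29 lists more members fell than rose, and on the TMM scale in 15. With the 2c libraries labelled WT, and also without the 2 MII libraries low in oocyte markers, the number was 25.

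By the median log2 fold change per embryo, lists of structural products of the egg stood lowest, though no test compared the lists. By the median summed level, genes for chromatin of the egg (13.6-fold), the egg coat (13.4-fold) and oocyte transcription factors (12.5-fold) fell further than the subcortical maternal complex list (9.62-fold). So did the chaperonin and heat shock list (9.84-fold), while the mRNA clearance (8.75-fold) and proteasome (8.41-fold) lists came close. All 16 tested members of the subcortical maternal complex and Nlrp list fell per embryo and 12 fell on the TMM scale, with a median log2 fold change of -4.11. Ooep, a core member of the complex, was at 50.8 to 2248 (median 1416) at MII and 13.3 to 194 (median 41.7) at 2c, a log2 fold change of -4.43. Nlrp5, known as MATER, went from a median of 255 to 13.5 and Tle6 from 367 to 11.9, and both fell on both scales. Zbed3 stayed more abundant, with 207 to 2262 (median 714) at 2c after 1721 to 16150 at MII, and its log2 TMM difference of -0.72 did not pass the test (adjusted p = 0.16). Of 13 genes for the egg coat and oocyte growth factors, 12 fell and none rose per embryo (median -4.09), and 9 fell and 1 rose on the TMM scale. Gdf9, an oocyte-secreted growth factor, went from a median of 2871 to 63.2, Zp1, a zona pellucida protein, from 516 to 18.1, and Izumo1r, the sperm receptor JUNO, from 972 to 41.4. Bmp15 fell less, by 2.29 on the log2 scale, and was not called on the TMM scale (adjusted p = 0.33). Of the 16 oogenesin and oocyte Fbxw genes, 15 fell per embryo and 12 on the TMM scale, with log2 fold changes of -5.85 for Fbxw20 and -5.61 for Fbxw22. The exception was Oog1, which rose from 4.23 to 23.1 at MII (median 10.2) to 311 to 1217 at 2c (median 811). Its row spans the region of the Eif1a-like genes on chromosome 12.

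Genes that control meiosis and stored messages fell in most cases. Of 20 genes for meiotic arrest and M-phase exit, 17 fell and none rose per embryo (median -2.92), and 11 fell and 2 rose on the TMM scale. Plk1, a mitotic kinase, went from a median of 361 to 65.4 and Aurka from 257 to 46.9, while Ccnb1, cyclin B1, fell by 1.56 per embryo but stood at 0.21 on the TMM scale (adjusted p = 0.6). Wee2, the oocyte kinase that inhibits CDK1, fell by 1.80 per embryo. Of 19 genes for mRNA storage, 16 fell and 1 rose per embryo, and 10 fell and 3 rose on the TMM scale. Dazl, which binds and activates stored messages, fell from 243 to 624 at MII to 0 to 28.1 at 2c, and Cpeb1, which controls cytoplasmic polyadenylation, from a median of 69.9 to 5.15. The gene that rose per embryo was Pabpc1, the poly(A)-binding protein of somatic cells, which went from a median of 4.39 to 23.6 (log2 fold change 2.24 ± 0.46, SE). Of 33 genes for mRNA clearance, 22 fell and none rose, while on the TMM scale 11 fell and 8 rose. Btg4, which brings the CCR4-NOT deadenylase to maternal messages, was at 1547 to 6073 (median 1872) at MII and 118 to 868 (median 235) at 2c. The log2 fold change was -2.80 for Cnot7, a catalytic subunit of that deadenylase, -4.77 for Cnot4 and -5.17 for the decapping factor Dcp1a.

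Most nuclear regulators of the oocyte fell as well. Of 13 oocyte transcription factors, 9 fell and 2 rose per embryo, and 4 fell and 2 rose on the TMM scale. Nobox, needed for the oocyte's own programme, went from a median of 822 to 7.85 (log2 fold change -6.40), and Tbpl2, an oocyte TBP paralog, fell by 2.51. Taf4b, an alternative TFIID subunit, rose from a median of 0 to 8.82. Of 28 genes for chromatin and DNA methylation of the egg, 23 fell and 1 rose per embryo, and 14 fell and 6 rose on the TMM scale. Dnmt1, the maintenance methyltransferase, went from a median of 554 to 10.2, Npm2, a nuclear chaperone of the egg, from 1542 to 98.7 and Zfp57, a guardian of imprints, from 1079 to 63.9. Dppa3, which protects the maternal genome from demethylation, kept 208 to 1773 (median 654) at 2c after 2958 to 4614 at MII. The gene that rose per embryo was Kdm5b, an H3K4 demethylase, at 2.19 to 22.2 at MII and 6.02 to 94.2 at 2c.

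**Figure D3:**
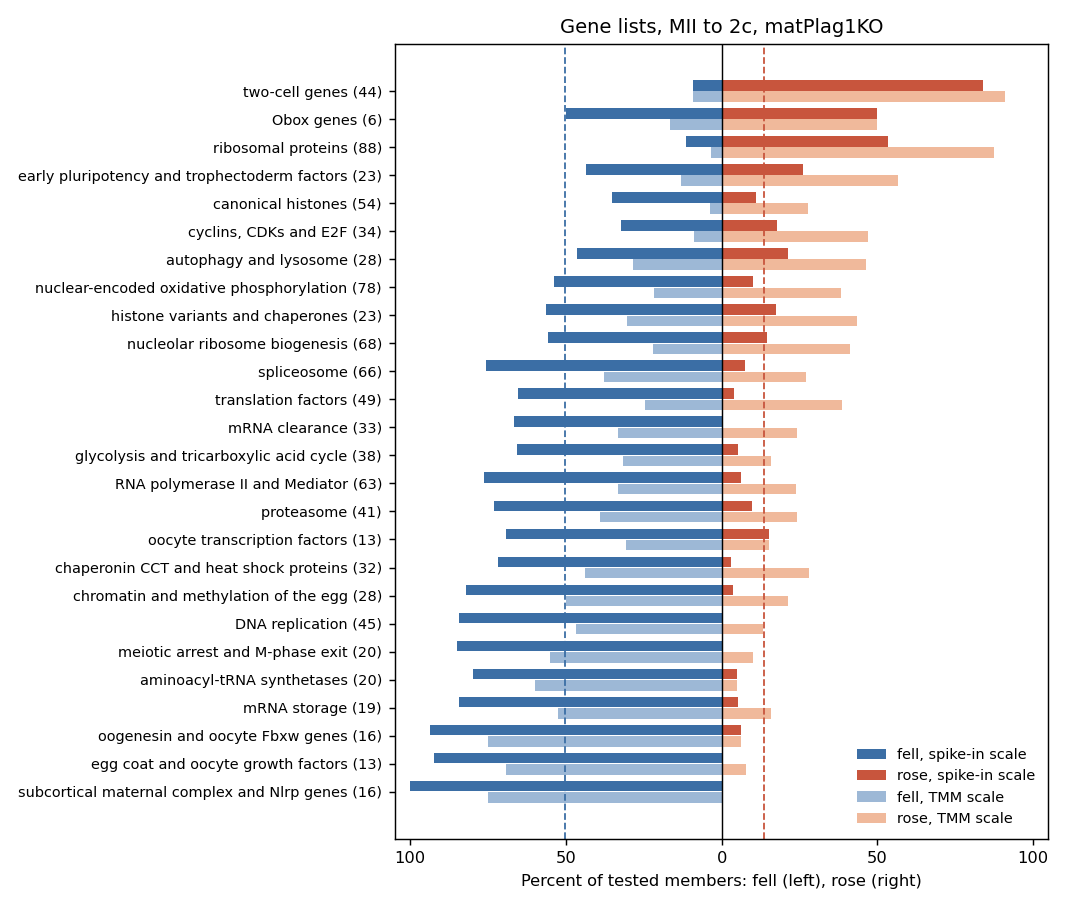
Percent of tested members (number in brackets) of 26 gene lists that fell (left) or rose (right) from MII to 2c in matPlag1KO libraries, in dark bars on the spike-in scale and light bars on the TMM scale. The dashed lines give the share of all tested genes on the spike-in scale, 50.3% fell and 13.5% rose. The subcortical maternal complex list stands at the bottom with 16 of 16 members that fell, and the 2-cell genes at the top with 37 of 44 that rose.

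The genes known for the burst at the 2-cell stage rose without maternal Plag1. Of 51 such genes 44 were tested, and 37 rose and 4 fell per embryo, beside 13.5% and 50.3% of all tested genes. The median log2 fold change was 4.07, or 3.93 with the 15 genes without counts at MII set at their bound, and it was 2.72 from WT oocytes to WT embryos. Tmem92 went from 0 to 21.6 at MII (median 2.19) to 49.4 to 345 at 2c (median 214). Zscan4c had 4 counts at MII and 159 at 2c, in 10 of the 11 embryos, and Tdpoz4 1 and 528. The 4 that fell were Rfpl4 (median 2275 to 56.1), Arg2, an arginase (80.6 to 9.80), D5Ertd577e and Zfp560, and all 4 already had counts in the oocyte. The summed level of the list, most of it Rfpl4 at MII, had a median of 2864 at MII and 1554 at 2c, and its share of gene counts a median of 0.405% and 0.902%. The Obox genes, oocyte and embryo homeobox factors, divided into 3 that rose and 3 that fell. Obox3 rose from at most 1.93 at MII to 8.43 to 126 at 2c and Obox6 from a median of 0 to 53.5, whereas Obox5 fell from a median of 604 to 91.1 and Obox7 from 77.5 to 8.16. Obox genes are close paralogs, so the division of reads between them is uncertain.

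Of 23 pluripotency and trophectoderm factors, 10 fell and 6 rose per embryo, beside 50.3% and 13.5% of all tested genes. On the TMM scale 3 fell and 13 rose, beside 19.3% and 29.1%. Pou5f1, which encodes OCT4, fell from a median of 354 to 57.3, and Klf17 from 377 to 51.5. Klf5, a factor of both first lineages, rose from 2 counts in 14 oocytes to 75 counts in 10 of 11 embryos, and Dppa4 rose from a median of 1.97 to 22.4. Dppa2, the partner of DPPA4, fell instead, from 139 to 37.0 at the median, and Gata3, a trophectoderm factor, from 58.6 to 2.04.

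Ribosomal protein genes, too, moved against the general fall. Of 88 tested, 47 rose and 10 fell per embryo, and 77 rose and 3 fell on the TMM scale. The median log2 fold change was 1.01 per embryo, or 0.93 with genes without counts at MII set at their bound. Their share of all gene counts was 0.351% to 1.36% at MII (median 0.746%) and 1.82% to 8.80% at 2c (median 3.30%), so the stages did not overlap. Their summed level was 1497 to 11335 (median 5587) at MII and 3622 to 11466 (median 5976) at 2c, with strong overlap. Rpl10l, a retrogene copy, rose from 1 count at MII to 92 at 2c, with counts in all 11 embryos. Rplp2 was at 85.6 to 246 at MII and 123 to 349.7 at 2c, a log2 difference of 0.35 that did not pass the test (adjusted p = 0.25). Rplp0 had medians of 239 and 162 and a log2 difference of 0.02 (adjusted p = 0.98), and its sign turned in several alternatives. Rps15a fell from a median of 79.2 to 7.50 and Rack1, a scaffold on the small subunit, from 226 to 25.7. With the 2c libraries labelled WT, 65 of the 88 rose and 6 fell (12.5% and 55.4% of all genes), and without the 2 MII libraries low in oocyte markers 43 rose and 11 fell.

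For ribosome biogenesis genes and translation factors the balance of calls turned with the scale, as it did over all tested genes. Of those, 50.3% fell and 13.5% rose per embryo, and 19.3% fell and 29.1% rose on the TMM scale. No test set these lists against the ribosomal protein genes. Of 68 nucleolar and ribosome biogenesis genes, 38 fell and 10 rose per embryo (median -1.70), whereas 15 fell and 28 rose on the TMM scale. Nop16 rose from a median of 0 to 30.6 and Nop2, an rRNA methyltransferase, from 0 to 20.4, while Ncl, nucleolin, fell from 619 to 35.7, Npm1 from 1090 to 249 and Bms1 from 116 to 1.02. Of 49 translation factors 32 fell and 2 rose per embryo, and 12 fell and 19 rose on the TMM scale. Eif2s2, the beta subunit of eIF2, went from 631 to 2261 at MII to 65.6 to 193 at 2c, and the elongation factor gene Eef1a1 from a median of 640.2 to 144. Of 20 aminoacyl-tRNA synthetase genes 16 fell and 1 rose per embryo, and 12 fell and 1 rose on the TMM scale. Farsb fell by 2.93 and Tars by 5.11 on the log2 scale.

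In 4 other lists of basic machinery more members fell than rose on either scale, as in the synthetase, glycolysis and DNA replication lists. Over all tested genes 19.3% fell and 29.1% rose on the TMM scale. Among 41 proteasome genes 30 fell and 4 rose per embryo, and 16 fell and 10 rose on the TMM scale, with Psma7 down from 349 to 1533 at MII to 1.25 to 57.3 at 2c and Psmb5 up from a median of 0 to 17.5. Among 32 chaperonin and heat shock genes 23 fell and 1 rose per embryo, and 14 fell and 9 rose on the TMM scale. Hsp90aa1, a major cytosolic chaperone, was at 1627 to 5650 (median 4355) at MII and 51.8 to 133 (median 94.7) at 2c, and the gene that rose per embryo was Cct6a, a chaperonin subunit, which went from a median of 0 to 13.5. Among 66 spliceosome genes 50 fell and 5 rose per embryo, and 25 fell and 18 rose on the TMM scale. Snrpd3 fell from a median of 198 to 2.58 and Magoh, of the exon junction complex, from 1025 to 150.2, while Cdc5l, a core splicing factor, rose from 5.92 to 40.8 and Snrpd2 from 0.924 to 12.2. Among 63 genes for RNA polymerase II and Mediator 48 fell and 4 rose per embryo, and 21 fell and 15 rose on the TMM scale. Polr2l, a small subunit shared by the nuclear polymerases, was at 18.3 to 143 (median 42.3) at MII and 48.2 to 203 (median 114) at 2c, and Cdk9, the kinase of productive elongation, rose from a median of 0.432 to 12.5. Gtf2b, which encodes TFIIB, fell from 258 to 10.2.

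Of 78 nuclear genes for oxidative phosphorylation, which supplies most ATP of the oocyte and cleavage embryo, 42 fell and 8 rose per embryo. On the TMM scale 17 fell and 30 rose. Over all tested genes the shares were 50.3% and 13.5% per embryo, and 19.3% and 29.1% on the TMM scale. Atp5g1 rose from a median of 19.3 to 108 and Atp5j from 1.29 to 17.6, both subunits of ATP synthase, while Uqcrc2 of complex III fell from 185 to 4.49 and Ndufa10 of complex I from 106 to 2.50. Cox8a fell by 1.04 per embryo and rose by 0.65 on the TMM scale. Of 38 genes for glycolysis and the tricarboxylic acid cycle 25 fell and 2 rose per embryo, and 12 fell and 6 rose on the TMM scale. Ldhb, the lactate dehydrogenase subunit of the oocyte, was at 1188 to 6770 (median 1598) at MII and 49.3 to 593 (median 82.6) at 2c. Ldha, the other main subunit, was without counts in 14 oocytes and had 59 counts in 10 of 11 embryos, at least 25.7-fold higher.

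Of 45 DNA replication genes 38 fell and none rose per embryo (median -2.68), and 21 fell and 6 rose on the TMM scale. Beside the counts of this paragraph stand the shares of all tested genes. These were 50.3% fell and 13.5% rose per embryo, and 19.3% and 29.1% on the TMM scale. Orc6 fell from a median of 395 to 42.1 and Pcna, the replication clamp, from 143 to 15.5. Among 34 cyclin, CDK and E2F genes 11 fell and 6 rose per embryo, while 3 fell and 16 rose on the TMM scale. Ccne1, cyclin E1, rose from a median of 0 to 15.7, Ccnb2 fell from 23.6 to 2.50, and Cdk1 had medians of 19.4 and 58.4 with a log2 difference of 0.04 ± 0.55 (SE, adjusted p = 0.98 in edgeR). Of 68 canonical histone genes 54 were tested, and 19 fell and 6 rose per embryo, while 2 fell and 15 rose on the TMM scale. Their messages lack poly(A) tails as a rule, so oligo(dT) capture sees them in part only. Slbp, the factor that binds those messages, fell from 1607 to 3462 at MII to 27.7 to 339 at 2c. Among 23 histone variant and chaperone genes 13 fell and 4 rose per embryo, while 7 fell and 10 rose on the TMM scale. H2afz, the variant H2A.Z, was at 31.5 to 114 (median 43.2) at MII and 165 to 592 (median 225) at 2c, without overlap, and Set, a histone chaperone, rose from a median of 2.74 to 74.4. H3f3b, a gene of H3.3, fell from 2343 to 548.

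Among 28 autophagy and lysosome genes 13 fell and 6 rose per embryo, beside 50.3% and 13.5% of all tested genes. On the TMM scale 8 fell and 13 rose, beside 19.3% and 29.1%. Ctsl, the lysosomal protease cathepsin L, rose from at most 2.78 at MII to 30.1 to 165 (median 55.0) at 2c, a log2 fold change of 6.62 ± 0.49 (SE). Map1lc3b, the LC3B protein of autophagosomes, rose from a median of 61.7 to 138, and Atg5 fell from 333 to 18.8. Of the other members of the Plag family, Plagl1 had 34 counts in 9 oocytes and 5 in 3 embryos (log2 fold change -2.14, adjusted p = 0.021) and Plagl2 154 in 14 and 19 in 5 (-2.53, adjusted p = 0.0049 in edgeR). Neither was called on the TMM scale. Among the 12 tested cumulus and granulosa markers 4 fell and 3 rose per embryo (2 and 4 on the TMM scale), and among the 5 tested sperm and spermatid markers 3 fell and 1 rose (1 and 1 on the TMM scale). Amhr2, the receptor of anti-Müllerian hormone, was among the risers.

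Whether these changes differed from those between WT oocytes and WT 2c embryos was tested by the difference of the 2 log2 fold changes. Per embryo, 111 genes (0.672%) had a higher and 201 (1.22%) a lower change in matPlag1KO at an adjusted p under 0.05, with 2458 genes at an unadjusted p under 0.05. On the TMM scale the numbers were 268 (1.62%) and 278 (1.68%). Of the 201, 130 fell in matPlag1KO, 21 rose and 50 were not called, and of the 111, 63 rose, 18 fell and 30 were not called. In 38 genes matPlag1KO rose where WT fell, and in 26 matPlag1KO fell where WT rose. These counts were unstable: libA alone gave 10 higher and 5 lower, libB alone 56 and 948. With the 2c genotype labels exchanged, 15 genes were higher (0.0908%) and 124 lower (0.751%). Without the 2c library libB.D2 labelled matPlag1KO they were 71 and 123, without the WT oocyte libA.A5 537 genes were lower, and without the 2 oocytes low in oocyte markers 318 were lower.

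Among the genes with the largest higher differences, levels at MII set the genotypes apart. Plag1 itself (mm9 chr4:3828305-3865552) was at 1.09 to 81.8 (median 8.38) in WT and 0 to 1.93 in matPlag1KO oocytes, and at 0 to 0.876 in WT and 0 to 23.5 (median 8.16) in matPlag1KO embryos. C920025E04Rik, a gene on chromosome 17, repeated this order, with 581 counts in 12 of 16 WT oocytes, 0 in matPlag1KO oocytes, 0 in WT embryos and 55 counts in 7 of 11 matPlag1KO embryos. Pknox2, a homeobox gene, had 591 counts in the WT oocytes and 1 in the matPlag1KO oocytes, against 52 and 105 at 2c, and Arid5b had 1808 and 43 at MII against 11 and 17 at 2c. Gm13103 had 261 and 14 at MII, and 3 and 35 at 2c. The log2 difference from WT of Gm13103 was 1.60 in libA and 9.50 in libB, and that of Arid5b 5.65 in libA and 0.72 in libB, so for both most of it came from a single pool. With the 2c labels exchanged, the difference was 0.34 for Plag1 and 0.98 for Gm13103, and among these genes it passed the test for Pknox2 only (6.63, adjusted p = 5.7e-06 in edgeR).

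Genes with the largest lower differences showed the opposite order at MII. Pebp4 had 0 counts in 16 WT oocytes and 155 in 12 of 14 matPlag1KO oocytes, and at 2c 118 counts in all 11 WT and 42 in 7 of 11 matPlag1KO embryos. AA465934 had 2 and 236 counts at MII, and Gm17830 67 and 1580, and both were near 0 in embryos of either genotype, with medians of at most 1.25. Itpa, an enzyme that removes inosine nucleotides, had 3 and 73 counts at MII and 60 and 33 at 2c. Ccm2, a scaffold protein, had 3 and 16 counts at MII, 57 at 2c in WT and 10 in matPlag1KO. For Pebp4, AA465934 and Gm17830 the genotypes were thus further apart in the oocyte than in the embryo. With the 2c labels exchanged, the differences of Pebp4 (-5.04), Gm17830 (-4.11) and Itpa (-3.23) still passed the test, and those of AA465934 (-5.14, adjusted p = 0.062) and Ccm2 (0.30, adjusted p = 0.9999) did not.

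**Figure D4:**
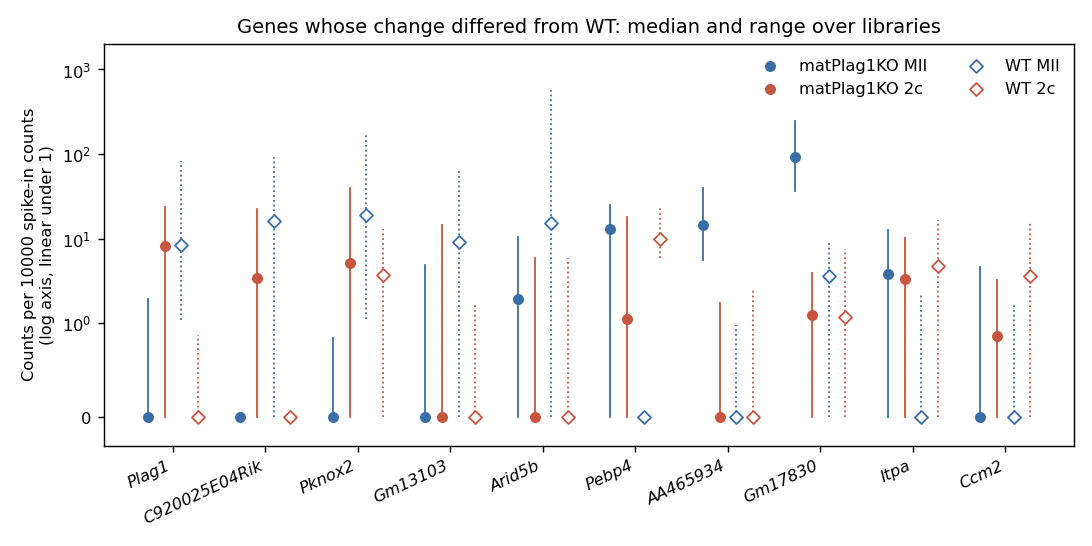
Median (symbol) and range (line) of the level, in counts per 10000 spike-in counts (log axis that is linear under 1), of the 10 named genes whose change differed from WT. Filled circles are matPlag1KO and open diamonds WT, blue MII and red 2c. Plag1 has medians of 0 and 8.16 in matPlag1KO and 8.38 and 0 in WT.

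The ribosomal protein genes called different from WT were all lower in matPlag1KO. Of 88 members 15 had a lower and none a higher change in matPlag1KO, beside 1.22% and 0.672% of all tested genes, and the change was below that of WT in 83. The median log2 fold change was 1.01 in matPlag1KO and 2.40 in WT, and on the TMM scale 14 were lower and none higher. In libA alone none was called, beside 0.0332% of all genes tested there, with 71 of 88 below 0, and in libB alone 45 of 87 were lower, beside 6.25% of all genes tested there. These values rest on the 2c labels: with them exchanged, none was lower and 1 higher, and 20 of 88 lay below 0. The median difference over all tested genes also moved between these settings. It was 0.0074 in the main fit, 0.39 in libA, -0.70 in libB and -0.61 with the labels exchanged. Lower changes were also called in other lists. Of 32 chaperones 6 were lower, of 68 ribosome biogenesis genes 6, of 66 spliceosome genes 6 (1 higher) and of 78 oxidative phosphorylation genes 5. The median difference was -1.14 for the ribosome biogenesis genes, with 58 of 68 below 0, and -1.17 for the ribosomal protein genes. Medians below that of all tested genes were also found for the proteasome, translation factor, DNA replication, RNA polymerase II and autophagy lists, among others. They included lists of the egg, such as meiotic arrest (-0.37), mRNA storage (-0.30) and egg chromatin (-0.069). Medians above it were found for the 2-cell genes (0.69), canonical histones (0.41), cyclins (0.40) and the subcortical maternal complex list (0.25), among others. With the labels exchanged none of the ribosome biogenesis genes and 1 of the chaperones was lower. Among the 2-cell genes 1 of 44 was higher and none lower, and among the 16 genes of the subcortical maternal complex list none was called. Named members with a lower change were Eif3e, a subunit of eIF3, Med17, of Mediator, Cenpa, the centromeric histone, Gabarapl2, Dppa2 and H2afz. Cdc5l was higher: its mean level was 5.50 in matPlag1KO and 103 in WT oocytes, and 46.9 and 34.8 at 2c.

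Promoters were searched for the PLAG1 consensus, its core and G cluster separated by 6 to 8 bases, on both strands of the RefSeq promoters of GRCm38.p6 (250 bases before to 50 after the start). The first promoter listed for each symbol was used, and promoters matched 12355 of the 16511 tested genes by symbol. Of these 26.6% held the consensus, beside 18.98% of all 27025 promoters in the table. The consensus is GC-rich, and mean GC content also differed, at 59.61% and 53.63%. It was in 26.4% of promoters of genes that rose on both scales, in 25.3% of those that fell on both, in 19.8% of those with a higher change than WT (16 of 81) and in 24.0% of those with a lower one (37 of 154). The shares thus lay at or below that of all tested genes. So did mean GC content, at 58.53%, 59.24%, 57.83% and 58.75% in the same order, and its part in the shares was not tested. The matches of 4 genes are shown because these genes carry results above, 1 of a gene that fell (Padi6), 2 of genes that rose (Polr2l and Ccne1) and 1 of a gene with a lower change than WT (Ccm2). Each is on its gene's strand with the match in capitals, at chr4:140742678-140742707 (minus strand), chr7:141475196-141475225 (minus), chr7:38107530-38107559 (minus) and chr11:6546857-6546886 (plus) of GRCm38.p6.
Padi6: taacaagGGGGCGGGCTGGGGTggtcctta
Polr2l: atcttacGGGGCGGAGCTAGGGcgtaatga
Ccne1: gccctcGGGGCGGGGCGCGAGGGcgggacg
Ccm2: gtgcgggtGGGGCGCGGCCGGGGcggagac
In each window a G-rich core is followed by another run of G. A match describes these letters only.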

How the data were processed

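The authors sequenced 5′ ends of transcripts of single oocytes and embryos with molecular identifiers, aligned them to mm9 with TopHat and counted with HOMER, whose versions are not given in the sources used here. They deposited raw counts of 24422 genes and 92 spike-in RNAs, without normalization, and every column matched a label. Libraries with a median under 1 CPM were left out, and a gene was tested if 5 or more kept libraries of the series reached 1 CPM for it. All 6 groups of stage and genotype were fitted together in edgeR (4.0.16, R 4.3.3, limma 3.58.1) with the quasi-likelihood test, with spike-in totals as library sizes and TMM factors as the other scale. DESeq2 (1.42.0) was an alternative. The threshold for a call was an adjusted p of 0.05. In simulated counts the test called somewhat more unchanged genes than its nominal rate. No library pair agreed within sampling noise (lowest chi-square per degree of freedom 3.99), and 181 tested rows share their counts with another row. Strand was not used in what the sources state of the counting, so overlapping genes are uncertain. Counting intervals (95%) and the floor of 3 counts cover counting error only.

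The members and gene lists were chosen with earlier results of these data known. Named are the 10 steepest rises and 10 steepest falls among genes called on both scales with at least 50 CPM, counts in every library of the higher stage and the same sign in both pools; the 5 most abundant per stage; the 5 highest and 5 lowest differences from WT with at least 20 CPM; the Plag genes; and for each list its most abundant and most changed members. Genes chosen beyond that rule are Zscan4c, Tdpoz4 and the other fixed markers.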

Additional observations from a re-analysis of the deposited data

Results flagged for a closer look

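The named genes below changed between MII and 2c to a different extent in matPlag1KO than in WT, by edgeR's test of the difference itself at an adjusted p under 0.05. Values are the log2 change in matPlag1KO minus that in WT, per embryo. Higher differences were found for C920025E04Rik (13.59), Plag1 (10.80), Pknox2 (8.30), Gm13103 (6.83), Arid5b (5.46) and Cdc5l (4.63). Lower ones were found for H2afz (-1.24), Gabarapl2 (-1.81), Dppa2 (-1.83), Cenpa (-2.24), Eif3e (-3.27), Med17 (-3.79), Ccm2 (-4.45), Itpa (-4.94), Gm17830 (-5.32), AA465934 (-7.14) and Pebp4 (-8.02). C920025E04Rik was without counts in matPlag1KO oocytes and WT embryos, and Pebp4 in WT oocytes, so the sizes of these 2 differences depend on the prior count of the fit and are no bounds. The value was 1.60 in libA and 9.50 in libB for Gm13103, 5.65 and 0.72 for Arid5b, and at least 1.5 in the same direction in both pools for the others except H2afz (-0.77 in libA), Dppa2 (-0.80) and Gabarapl2 (-1.34). With the 2c genotype labels exchanged, the difference passed the test for Pknox2 (6.63), Cdc5l (3.77), Itpa (-3.23), Gm17830 (-4.11) and Pebp4 (-5.04), and it turned positive for H2afz (0.85), Gabarapl2 (0.035), Dppa2 (1.11), Cenpa (0.59), Eif3e (1.93), Med17 (3.26) and Ccm2 (0.30).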

How the results depend on the processing

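The scale moved the number of genes that fell most. This number was 8055 with a likelihood ratio test, 7583 with DESeq2, 8301 without a filter on low counts and 8587 with no library left out. It was lower in libA alone (6149), libB alone (6517) and thinned libraries (7159). Between these alternatives, whether the same genes were called was compared for named genes at most. TMM factors gave 3192 genes that fell and 4799 that rose, a median of 0.14 and 15 lists with more falls, and median-ratio size factors 2497, 5457 and 0.40. Without a filter on low counts the median was -1.05. Fewer genes rose in libA alone (1298), libB alone (1432), libraries thinned to 1 fraction (1338) and DESeq2 (1322, with 2241 adjusted p-values NA). Leaving out each of the 25 libraries in turn gave 7699 to 8441 genes that fell, 2058 to 2345 that rose and medians of -1.47 to -1.22. For differences from WT, higher and lower genes were 28 and 42 at an adjusted p under 0.01, 10 and 5 with libA alone, 56 and 948 with libB alone, and 15 and 124 with the 2c genotype labels exchanged (chosen after seeing the data). Higher genes were 268 with TMM and 434 with median-ratio factors. Lower genes were 94 with no library left out, 391 with DESeq2 and 318 without the 2 oocytes low in oocyte markers, an alternative chosen after seeing the data, as was leaving out each of 52 libraries, which gave 71 to 157 higher and 123 to 537 lower genes (lowest without the matPlag1KO 2c library libB.D2, most lower genes without the WT oocyte libA.A5). Among 137 named genes the log2 fold change turned sign as follows. With WT-labelled 2c libraries it was 0 for C920025E04Rik, -0.92 for Plag1, -1.49 for Gm13103, 0.027 for Pebp4, 0.15 for Itpa, 2.03 for Ccm2, -0.81 for Rplp0 and 0.95 for Cenpa. With TMM it was 0.82 for Rn45s, 1.21 for Omt2a, 0.64 for Arid5b, 0.35 for Pebp4, 1.04 for Itpa, 1.34 for Ccm2, 0.21 for Ccnb1, 0.17 for Oog3, 0.65 for Cox8a, 1.26 for Cenpa and 0.40 for Hist1h1a. In libA it was 0.089 for Itpa, 0.27 for Ccm2, -0.028 for Rplp0 and -0.36 for Cdk1, and in libB 0.29 for Arid5b. Rplp0 stood at -0.034 with no library left out, and without the 2 oocytes Rplp0 stood at -0.065 and Cdk1 at -0.18. The cause of these shifts was not tested. The position numbers in the labels repeat between groups within a pool, but name no shared animal or culture. Of 10 matPlag1KO pairs with the same pool and number, 1 had deviations from the group means correlated over 0.1 (median r = 0.022, range -0.21 to 0.12). With pool and number as a replicate block, also chosen after seeing the data, 7493 genes fell, 1877 rose, and 44 and 113 were higher and lower than in WT. The 2c libraries held fewer gene counts than the oocytes (medians of 163626 and 649899), so small falls of rare transcripts could not be seen at this depth.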
